A study of Mus musculus with 8 samples.

Results

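Microglial identity rests on a small set of transcription factors, and 9 of their genes were followed here in sorted microglia of *Smad2/3* mutant and control mice: *Sall1*, *Sall3*, *Mef2a*, *Mef2c*, *Spi1*, *Maf*, *Runx1*, *Cebpa* and *Cebpb*. They were chosen by name from the 55573 genes of the deposited count table, with earlier results of these data known. All 9 passed the filter on low counts. The cells came from 4 *Smad2/3* fl/fl;*Cx3cr1* Cre mice (mutants 1 to 4) and 4 control mice (controls 1 to 4), taken at postnatal day 60, with 1 RNA-seq library made per mouse. *Smad2* and *Smad3* encode the factors that carry canonical TGFβ signals into the nucleus, and the Cre recombinase made from the *Cx3cr1* locus removes floxed genes in microglia and in related macrophages. The labels call the controls wild type, whereas the study's Methods say that controls in general carried Cre together with 1 floxed allele, so the exact control genotype is not settled by the labels. Per the Methods, the strain was C57BL6/J, and the cells were taken from a Percoll gradient and sorted by flow cytometry. The Methods refer to a different deposit for microglia of this genotype, to which the genotype and the sorted cells of the 8 libraries point.

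In background terms, PU.1 (encoded by *Spi1*), RUNX1 and the C/EBP factors are used by myeloid cells in general, where PU.1 opens enhancers that other factors then share. MEF2A and MEF2C bind many of the same enhancers in microglia, and c-MAF, encoded by *Maf*, is a basic leucine zipper factor of differentiated macrophages. SALL1 is a zinc finger factor that in the macrophage lineage is largely particular to microglia, it represses through the NuRD complex, and SALL3 is its close relative. Microglia need TGFβ to express *Sall1*.

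The sequences just upstream of 3 of these genes are shown because their levels changed in the mutants. From the RefSeq promoter table for GRCm38.p6, stretches of 6 of the 9 genes were used, with 11 start sites in all. *Spi1* and *Maf* were not matched. *Sall3* was left out of this search, so whether it has an entry was not examined, and the motif counts below do not cover it. Each line gives the 250 bases before the start site, 5′ to 3′ on the strand of the gene, with capitals marking a match to 1 of the motifs searched. The *Sall1* stretch is chr8:89044163-89044412 on the minus strand, that of *Mef2a* is chr7:67372859-67373108 on the minus strand, and that of *Mef2c* is chr13:83503784-83504033 on the plus strand.
*Sall1*: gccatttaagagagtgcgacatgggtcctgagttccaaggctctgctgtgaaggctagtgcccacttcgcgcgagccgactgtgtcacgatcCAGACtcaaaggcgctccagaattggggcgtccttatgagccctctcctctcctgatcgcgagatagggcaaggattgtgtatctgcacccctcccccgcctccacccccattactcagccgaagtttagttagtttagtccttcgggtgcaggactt
*Mef2a*: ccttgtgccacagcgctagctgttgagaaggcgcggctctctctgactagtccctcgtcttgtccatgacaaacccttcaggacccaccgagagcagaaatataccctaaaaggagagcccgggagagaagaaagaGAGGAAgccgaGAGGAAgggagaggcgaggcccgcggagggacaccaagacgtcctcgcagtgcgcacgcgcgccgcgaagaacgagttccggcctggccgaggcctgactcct
*Mef2c*: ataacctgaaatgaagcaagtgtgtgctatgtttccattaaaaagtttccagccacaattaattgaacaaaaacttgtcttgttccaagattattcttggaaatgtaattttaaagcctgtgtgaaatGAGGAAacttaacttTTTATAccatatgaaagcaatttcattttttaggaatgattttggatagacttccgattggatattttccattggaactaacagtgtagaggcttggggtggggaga
The *Sall1* capitals are the SMAD box CAGAC, 158 to 154 bases before the start site. The stretches before the other 2 *Sall1* start sites held none of the motifs searched. The *Mef2a* capitals are the core GAGGAA that PU.1 binds, at 114 to 109 and at 103 to 98 bases before the start site. The *Mef2c* stretch printed holds the same core at 122 to 117 bases, and TTTATA, the reverse complement of the TATA box TATAAA, at 107 to 102 bases. Of the other 2 *Mef2c* start sites, 1 had GAGGAA at 186 to 181 bases and TTTATA at 22 to 17 bases. The other had GTCTG, the reverse complement of the SMAD box, at 128 to 124 bases. On both strands, CAGAC lay in 42.2% of the 32536 mouse promoter stretches of this length, GAGGAA in 23.4% and TATAAA in 12.3%. Among the 11 stretches of the 6 matched genes, 2 held CAGAC, 4 held GAGGAA and 3 held TATAAA. The RUNX core TGTGGT (14% of all stretches), the C/EBP motif TTGCNNAA (9.57%) and the MEF2 box (0.104%) were found in none of the 6 genes. The searched motifs share no overlapping matches in the 3 stretches printed. Motifs this short are common, and each match is a description of letters and not of a bound site.

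Before the factors themselves, the samples were checked. Libraries held 35639502 to 41946479 counts on genes. *Smad3* was 39.5 to 56.9 CPM (counts scaled to library size, after TMM) in controls and 9.61 to 35.1 CPM in mutants (log2 fold change -1.33, adjusted p = 0.0429), whereas *Smad2* fell short of a call (-0.34, adjusted p = 0.340), and whole-gene counts include reads from exons outside the floxed ones. *Xist* was 99.5 to 183 CPM in controls and at most 0.562 CPM in mutants, and the Y-linked *Ddx3y* was at most 0.224 CPM in controls and 9.74 to 59.8 CPM in mutants, so genotype and sex cannot be told apart in any result that follows. The 10 microglial markers summed to 36327 to 55504 CPM in controls and to 5743 to 8286 CPM in mutants, with 10 of 10 lower. The 7 markers of border-associated macrophages summed to 52.8 to 99.1 CPM and 1632 to 2537 CPM, with 5 of 7 higher, and the 4 T cell markers to 8.39 to 28.8 CPM and 39.0 to 83.8 CPM, with 2 of 4 higher. Marker sums of the other cell types overlapped between the groups or, for astrocytes, were lower in mutants (1425 to 2427 CPM against 341 to 1258 CPM) with 1 of 6 markers called: *Slc1a3*, at 1349 CPM and 78.9 CPM, was the only one whose groups did not overlap. Neuronal markers summed to 38.3 to 370 CPM in controls and 105 to 337 CPM in mutants, highest in control 1 and mutant 1. Oligodendrocyte markers were also highest in these 2 libraries and at larger sums, 707 to 4503 CPM in controls and 1164 to 3795 CPM in mutants. None of these marker genes was at 0 in all libraries, and their part in the changes of the 9 factors was not tested. In sorted bulk samples, fewer cells of a type and less RNA per cell cannot be told apart.

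Of the 9 factors, 5 were called lower in mutants (*Sall1*, *Sall3*, *Mef2a*, *Mef2c* and *Spi1*), against 7.97% of the 20153 genes tested. In the other direction, 1 was called higher (*Maf*), against 4.36%. *Runx1*, *Cebpa* and *Cebpb* were not called by edgeR, and DESeq2 called *Cebpa* as well. In either direction, 12.3% of tested genes were called. The 9 genes and the lists below were chosen with earlier results of these data known, so these shares cannot test an excess. The same 5 genes that fell were the ones in which mutants and controls did not overlap, all with mutants lower, a pattern seen in 13% of tested genes (22.1% in either direction). The median log2 fold change was -0.91 over the 9 factors and 0.01 over all genes tested. The changes fell into separate ranges: *Sall1* and *Sall3* lay below -6 on the log2 scale, and the other 7 between -1.46 and 1.11.

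**Figure D1:**
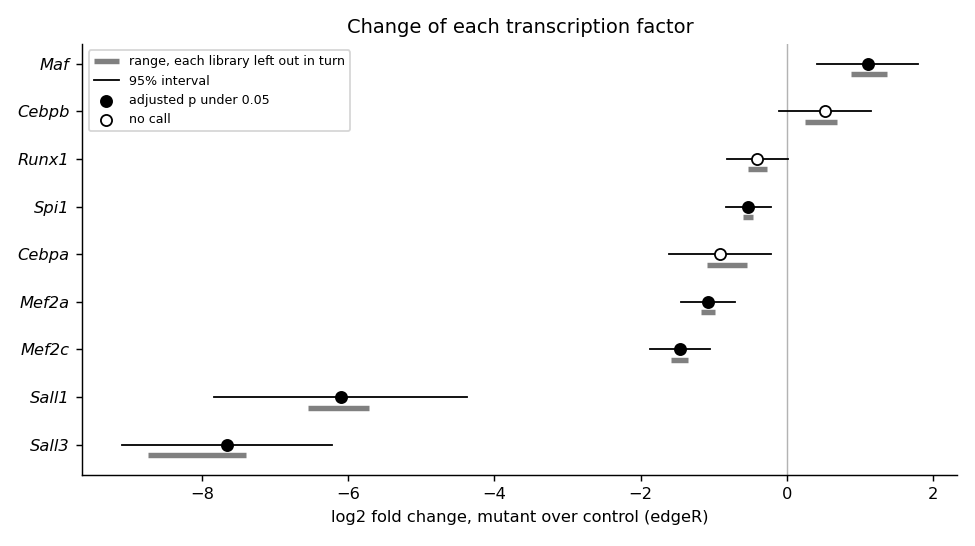
Log2 fold change of each factor, mutants over controls, from edgeR's quasi-likelihood test on 4 mice per group. Circles are the estimates, filled where the adjusted p was under 0.05, thin lines the 95% intervals and thick grey lines the range with each library left out in turn. *Sall3* (-7.66) and *Sall1* (-6.11) lie far to the left of the other 7, and only *Maf* (1.11) has a filled circle right of 0.

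The SALL factors showed by far the largest changes among the 9. *Sall1* (ENSMUSG00000031665, chromosome 8, 89027235 to 89044162 of GRCm38, minus strand) was at 165, 166, 214 and 239 CPM in controls 1 to 4 and at 0.208, 5.08, 4.07 and 1.99 CPM in mutants 1 to 4. The mutant values rest on 8, 235, 146 and 72 reads, against at least 6376 reads in each control, and every mutant lay far below every control. Controls averaged 196 ± 36.8 CPM and mutants 2.83 ± 2.17 CPM (SD, n = 4 each). EdgeR's log2 fold change was -6.11 (SE 0.77, adjusted p = 0.00118), a 68.9-fold lower level with a 95% interval from -7.84 to -4.38 on the log2 scale. The mutants differed from each other more than the controls did, with a highest value 24.4 times the lowest, against 1.45 times in controls.

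*Sall3* (ENSMUSG00000024565, chromosome 18, 80966376 to 80986771, minus strand) was at 40.8, 50.9, 77.9 and 83.3 CPM in controls 1 to 4 and at 0.182, 0.756, 0.139 and 0.110 CPM in mutants 1 to 4. Only 7, 35, 5 and 4 reads were counted in the mutants, against at least 1579 in each control, so the mutant levels carry a large counting error. Levels went from 63.2 ± 20.6 CPM to 0.297 ± 0.308 CPM (SD, n = 4 each), and the log2 fold change was -7.66 (SE 0.64, 95% interval -9.10 to -6.22, adjusted p = 0.000132). That is a 202-fold lower level. In controls, *Sall1* and *Sall3* had the same order of mice, with mice 1 and 2 low and mice 3 and 4 high.

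The remaining level of both genes varied by mouse. *Sall1* stood at 0.106%, 2.59%, 2.07% and 1.01% of the control mean in mutants 1 to 4. *Sall3* stood at 0.288%, 1.20%, 0.220% and 0.175%. Mutant 2 was thus highest for both, whereas mutant 1 was lowest for *Sall1* only. For comparison, *Xist* stood at 0.0379%, 0.410%, 0.0610% and 0.0202% of its control mean in the same 4 libraries, again highest in mutant 2. Remaining *Smad3* had another order, at 31.0%, 19.8%, 72.1% and 35.9% of the control mean, so mutant 2 had the least *Smad3* and the most *Sall1*. The part of such differences between libraries in the remaining *Sall1* and *Sall3* was not tested.

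**Figure D2:**
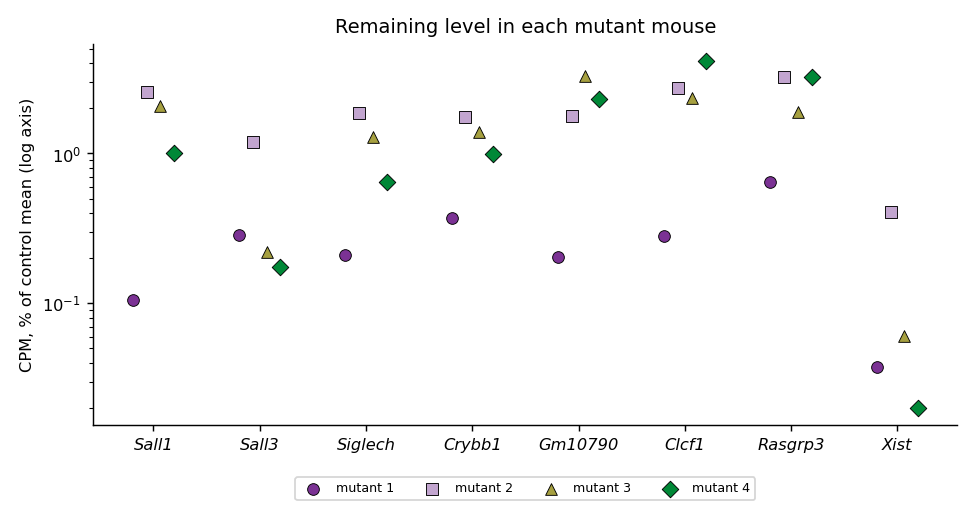
Remaining level in each mutant mouse as a percentage of the control mean (CPM, log axis) for *Sall1*, *Sall3*, the 5 genes most like *Sall1*, and *Xist*. Each symbol is 1 mouse. Mutant 1 is lowest for *Sall1* (0.106%) and for the 5 genes, which were chosen for their likeness to it over these libraries, whereas for *Sall3* the highest mouse, mutant 2 (1.20%), stands above the other 3.

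Genes with a pattern most like that of *Sall1* were ranked by the root mean square difference of log2 CPM over the 8 libraries, each gene centred on its control mean, among 14276 genes with a mean log2 CPM of at least 1. *Siglech*, a sialic acid receptor of microglia, came first with a difference of 0.49, then *Crybb1* (0.62), *Gm10790* (0.64), *Clcf1*, a cytokine of the IL-6 family (1.02), and *Rasgrp3*, an exchange factor for Ras proteins (1.04). *Siglech* went from 2086 ± 594 CPM to 20.9 ± 15.1 CPM and *Crybb1* from 443 ± 79.0 CPM to 4.98 ± 2.63 CPM (SD, n = 4 each).

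The MEF2 factors, MADS box proteins that bind AT-rich sites, were lower in mutants by much less. *Mef2c* (ENSMUSG00000005583, chromosome 13, 83504034 to 83667080, plus strand) was at 357, 375, 493 and 396 CPM in controls 1 to 4 and at 147, 141, 183 and 117 CPM in mutants 1 to 4. The highest mutant lay well below the lowest control. The means were 405 ± 60.9 CPM and 147 ± 27.1 CPM (SD, n = 4 each), and the log2 fold change was -1.46 (SE 0.18, 95% interval -1.87 to -1.05, adjusted p = 0.00111), leaving 36.2% of the control level.

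*Mef2a* (ENSMUSG00000030557, chromosome 7, 67231163 to 67372858, minus strand) was at 239, 255, 290 and 236 CPM in controls 1 to 4 and at 145, 96.8, 132 and 110 CPM in mutants 1 to 4. Controls and mutants were again apart, with a spread among mice that was the smallest of the 9 factors in controls, a coefficient of variation of 9.71%. From 255 ± 24.8 CPM to 121 ± 21.6 CPM (SD, n = 4 each), *Mef2a* changed by -1.08 on the log2 scale (SE 0.17, 95% interval -1.45 to -0.70, adjusted p = 0.00334), leaving 47.4% of the control level.

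Both genes fell, and *Mef2c* fell further. The log2 ratio of *Mef2c* to *Mef2a* within a library does not depend on how libraries are scaled. It was 0.58, 0.56, 0.77 and 0.74 in controls 1 to 4 and 0.02, 0.54, 0.47 and 0.09 in mutants 1 to 4. Every mutant lay below every control, though mutant 2 lay just below control 2. The means of 0.66 ± 0.11 and 0.28 ± 0.27 (SD, n = 4 each) differed by -0.38 (two-sided exact permutation test over 70 splits, p = 0.0286, the smallest these groups can give, 0.0429 adjusted over the 3 pairs of relatives compared). With medians in place of means, the exact p was 0.0571, the smallest that a difference of medians can give with 4 against 4.

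*Spi1* (ENSMUSG00000002111, chromosome 2, 91082390 to 91115756, plus strand), whose product PU.1 is the myeloid master regulator, was the least changed of the 5 factors that fell. It was at 433, 511, 566 and 511 CPM in controls 1 to 4 and at 338, 334, 372 and 361 CPM in mutants 1 to 4. The mutants were tightly grouped, with a coefficient of variation of 5.13%, and all lay below the lowest control, control 1. The means were 505 ± 54.9 CPM and 352 ± 18.0 CPM (SD, n = 4 each), and the log2 fold change was -0.52 (SE 0.14, 95% interval -0.83 to -0.21, adjusted p = 0.0376). The call was close to the threshold. It was lost in 7 of 8 analyses that left out 1 library (all but that without control 1), with log2 fold changes from -0.59 to -0.46 and adjusted p from 0.0337 to 0.102, and it was lost with libraries scaled by their totals (-0.40, adjusted p = 0.0649).

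*Maf* (ENSMUSG00000055435, chromosome 8, 115682942 to 115707794, minus strand) was the only one of the 9 that was called higher in mutants. It was at 67.6, 66.8, 86.4 and 122 CPM in controls 1 to 4 and at 107, 159, 207 and 265 CPM in mutants 1 to 4. Mutant 1 lay below control 4, so the groups overlapped, and the other 3 mutants lay above all controls. The means were 85.6 ± 25.6 CPM and 185 ± 67.5 CPM (SD, n = 4 each), a 2.16-fold higher level (log2 fold change 1.11, SE 0.30, 95% interval 0.42 to 1.79, adjusted p = 0.0452). The call was lost in 6 of 8 analyses that left out 1 library (all but those without control 4 or mutant 1), with log2 fold changes from 0.88 to 1.38 and adjusted p from 0.0198 to 0.125. An opposite-strand gene, *Gm15655*, covers 5.34% of the exon bases of *Maf*, and reads in the shared bases cannot be told apart without strand. *Gm15655* itself was at 0 CPM in both groups.

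*Runx1* (ENSMUSG00000022952, chromosome 16, 92601466 to 92826149, minus strand), a Runt domain factor needed for blood cell formation, did not pass the test. It was at 120, 126, 170 and 118 CPM in controls 1 to 4 and at 97.4, 95.8, 127 and 83.6 CPM in mutants 1 to 4. Mutant 3 lay among the controls, and the other 3 mutants lay below all of them. The log2 fold change was -0.40 (SE 0.19, 95% interval -0.82 to 0.01, adjusted p = 0.188). Both no change and a fall larger than the estimate for *Spi1* (-0.52) lie within the interval.

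The C/EBP factors, basic leucine zipper proteins of the myeloid lineage, had no call by edgeR for either gene, with estimates on opposite sides of 0. *Cebpa* (ENSMUSG00000034957, chromosome 7, 35119293 to 35121928, plus strand) was at 99.9, 154, 275 and 130 CPM in controls 1 to 4 and at 68.9, 82.2, 115 and 83.6 CPM in mutants 1 to 4. Mutant 3 lay above control 1, and control 3 stood far above the other controls. The log2 fold change was -0.91 (SE 0.31, 95% interval -1.62 to -0.21, adjusted p = 0.0897), and without control 3 it was -0.55. With DESeq2 the value was -0.92 and passed (adjusted p = 0.0382).

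*Cebpb* (ENSMUSG00000056501, chromosome 2, 167688915 to 167690418, plus strand) was at 307, 370, 448 and 245 CPM in controls 1 to 4 and at 415, 338, 750 and 472 CPM in mutants 1 to 4. The groups overlapped, and mutant 3 stood above all other libraries. The log2 fold change was 0.53 (SE 0.28, 95% interval -0.10 to 1.16, adjusted p = 0.250), and without mutant 3 it was 0.25. *Tmem189*, on the opposite strand, covers 20.7% of the exon bases of *Cebpb*, more than any overlap of the other 8 genes. It was 51.0 ± 8.40 CPM in controls and 64.7 ± 11.6 CPM in mutants (SD, n = 4 each) and passed no call.

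**Figure D3:**
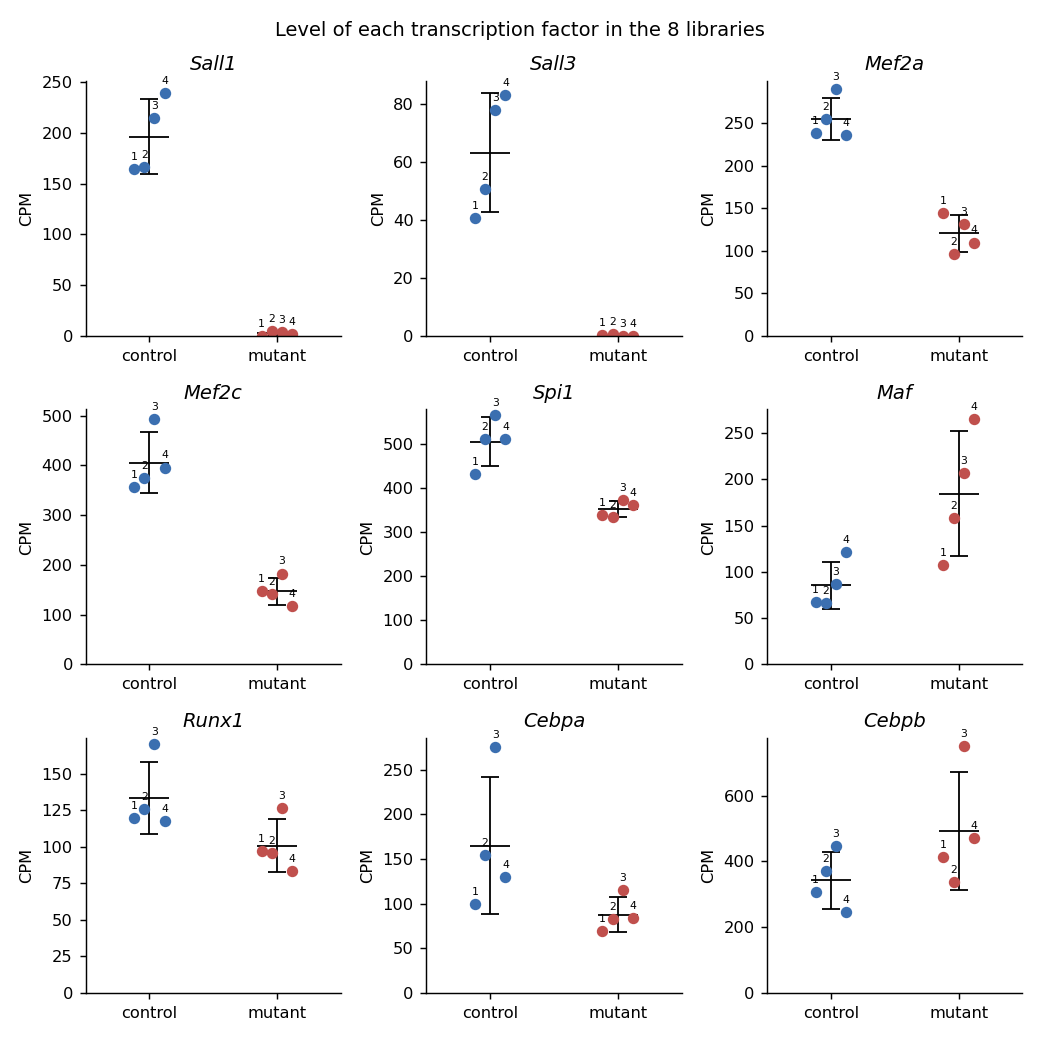
CPM of each of the 9 factors in the 8 libraries on linear axes that start at 0. Points are mice numbered as in the text (blue controls, red mutants), long bars the means and short bars the SD of 4 mice. The mutants of *Sall1* (0.208 to 5.08 CPM) and *Sall3* (0.110 to 0.756 CPM) lie on the axis, and those of *Maf* reach 265 CPM.

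The ratio of the C/EBP genes, neither of which edgeR called on its own, differed between the groups. The log2 ratio of *Cebpb* to *Cebpa* was 1.62, 1.26, 0.70 and 0.92 in controls 1 to 4 and 2.59, 2.04, 2.71 and 2.50 in mutants 1 to 4. The lowest mutant, mutant 2, lay above the highest control, control 1. The means of 1.13 ± 0.40 and 2.46 ± 0.29 (SD, n = 4 each) differed by 1.33 (two-sided exact permutation test, p = 0.0286, 0.0429 adjusted over the 3 pairs). With medians in place of means, the difference was 1.45 and the exact p 0.0571, again the smallest that medians of 4 against 4 allow. Controls 3 and 4 had the lowest ratios. For *Sall1* to *Sall3*, the ratio went from 1.67 ± 0.25 to 2.72 ± 1.86 (SD, n = 4 each, exact permutation p = 0.314), with mutants from 0.15 in mutant 1 to 4.43 in mutant 3, where *Sall3* rested on 5 reads.

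**Figure D4:**
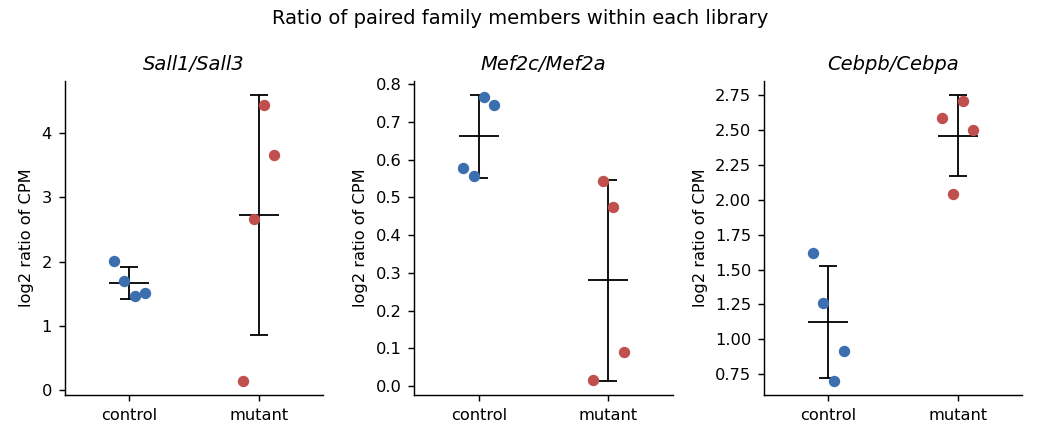
Log2 ratio of CPM between relatives within each library, with the mean and SD of 4 mice per group. The mutant ratios of *Mef2c* to *Mef2a* (0.02 to 0.54) lie below all controls, those of *Cebpb* to *Cebpa* (2.04 to 2.71) lie above all controls, and those of *Sall1* to *Sall3* overlap the controls. The axes do not start at 0.

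Between genes, levels were compared as CPM per kilobase of annotated exon. In controls the order was *Cebpb* (228 ± 57.7), *Spi1* (187 ± 20.4), *Cebpa* (62.4 ± 29.2), *Sall1* (37.2 ± 6.99), *Mef2c* (25.8 ± 3.87), *Mef2a* (17.4 ± 1.69), *Runx1* (11.1 ± 2.06), *Maf* (10.4 ± 3.11) and *Sall3* (8.45 ± 2.75 CPM per kilobase, SD, n = 4). The ranges over mice of neighbours in this order overlapped except between *Spi1* and *Cebpa*, between *Mef2c* and *Mef2a*, and between *Mef2a* and *Runx1*. In mutants the order was *Cebpb* (328 ± 119), *Spi1* (130 ± 6.70), *Cebpa* (33.2 ± 7.39), *Maf* (22.4 ± 8.20), *Mef2c* (9.34 ± 1.73), *Runx1* (8.39 ± 1.53), *Mef2a* (8.23 ± 1.47), *Sall1* (0.538 ± 0.413) and *Sall3* (0.0397 ± 0.0411 CPM per kilobase, SD, n = 4). There the ranges overlapped between *Cebpa* and *Maf*, among *Mef2c*, *Runx1* and *Mef2a*, and between *Sall1* and *Sall3*. *Maf* thus moved from the eighth place to the fourth and *Sall1* from the fourth to the eighth. Among all genes tested, *Sall1* stood at percentile 91.3 in controls and 19.1 in mutants, and *Sall3* at percentile 70.5 and 1.09.

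The libraries of a group did not take the same place in every gene. Control 3 was the highest control for 6 of the 9 factors (*Mef2a*, *Mef2c*, *Spi1*, *Runx1*, *Cebpa* and *Cebpb*), and control 4 for the other 3 (*Sall1*, *Sall3* and *Maf*). Mutant 3 was the highest mutant for 5 of the 9 (*Mef2c*, *Spi1*, *Runx1*, *Cebpa* and *Cebpb*). The TMM factor of control 3, 0.874, was the lowest of the 8 libraries, which raises its CPM for every gene relative to scaling by library totals. The part of this scaling in the order of the controls was not tested.

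The other members of these families gave the next comparison, with 18 relatives listed and 14 tested. Of these, 2 were higher and 2 were lower, against 4.36% and 7.97% of all tested genes, with a median log2 fold change of -0.01. *Spic*, a relative of *Spi1* known for its role in red pulp macrophages, was at 0.905, 0, 0.0839 and 0.161 CPM in controls 1 to 4 and at 38.3, 33.1, 36.0 and 33.2 CPM in mutants 1 to 4 (log2 fold change 6.91, SE 0.90, adjusted p = 0.00141). It rested on 35, 0, 3 and 6 reads in the controls. *Runx3*, a relative of *Runx1* known from T cells, NK cells and Langerhans cells, was at 1.40 to 5.22 CPM in controls and at 75.6, 75.1, 153 and 76.3 CPM in mutants 1 to 4 (4.87, SE 0.50, adjusted p = 0.000406). In both genes every mutant lay far above every control, while *Spi1* fell and *Runx1* passed no call in the same libraries. *Cd3e* and *Trbc2*, the T cell markers that were higher, went from 2.11 ± 0.921 to 7.71 ± 1.70 CPM and from 8.52 ± 3.12 to 28.2 ± 8.44 CPM (SD, n = 4 each), and their part in the level of *Runx3* was not tested.

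The falls were smaller. *Mef2d* went from 103 ± 8.77 to 50.6 ± 12.8 CPM (log2 fold change -1.03, adjusted p = 0.00896), so that all 3 MEF2 genes with more than a few CPM were lower. *Mafg*, a small MAF protein without a transactivation domain, went from 140 ± 33.1 to 73.4 ± 4.77 CPM (-0.93, adjusted p = 0.0101). *Sall2*, named here after its values were seen, was 9.14 ± 2.47 CPM in controls and 8.81 ± 4.92 CPM in mutants (-0.05, adjusted p = 0.955, SD, n = 4 each), and unlike *Sall1* and *Sall3* its groups overlapped. The other tested relatives had no call by edgeR, and *Sall4*, *Mafa*, *Nrl* and *Ddit3* did not pass the filter on low counts. DESeq2 called 5 of the 15 relatives it tested, 2 higher and 3 lower, against 20.7% of all genes in either direction.

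**Figure D5:**
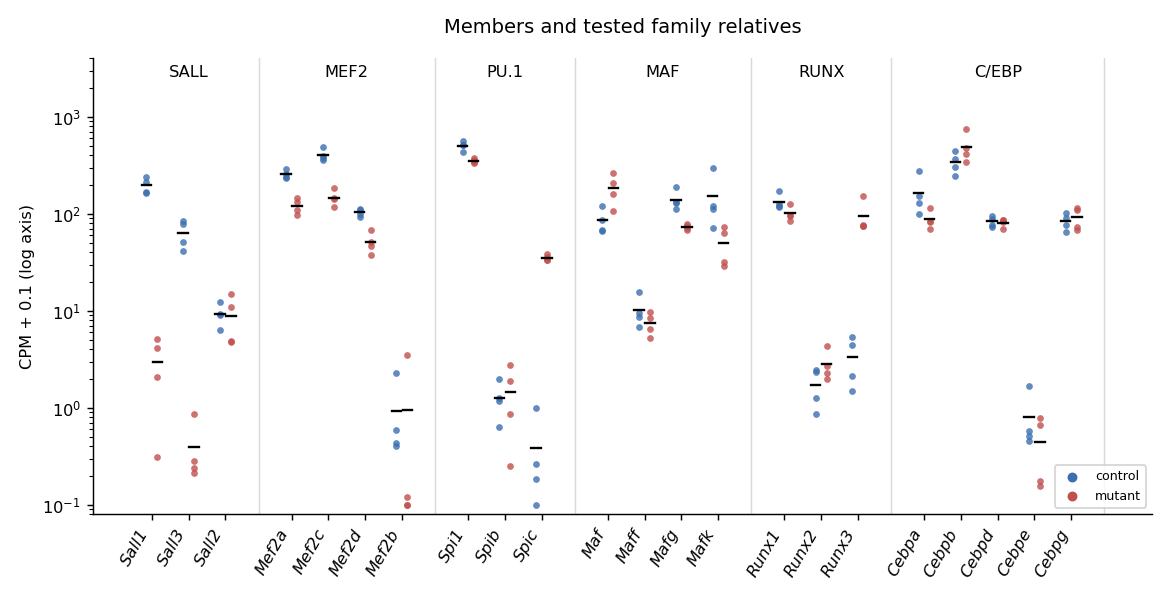
CPM plus 0.1, on a log axis, of the 9 factors and of tested relatives by family. Points are mice (blue controls, red mutants) and bars group means. *Spic* and *Runx3* lie higher in all mutants (at least 33.1 and 75.1 CPM) than in any control (at most 0.905 and 5.22 CPM), and *Sall2* shows no such gap to match *Sall1* and *Sall3*.

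Genes whose proteins bind these factors came next. Of 15 such partner genes, 14 were tested, none was higher and 3 were lower, against 4.36% and 7.97% of all tested genes. The median log2 fold change of the 14 tested was -0.67, against 0.01 over all genes. *Cbfa2t3*, a corepressor that joins RUNX1 complexes, went from 27.4 ± 7.22 to 4.99 ± 0.626 CPM (log2 fold change -2.45, SE 0.24, adjusted p = 0.000341). *Irf8*, which binds DNA together with PU.1, went from 520 ± 96.8 to 194 ± 34.8 CPM (-1.42, SE 0.20, adjusted p = 0.00184). *Hdac5*, a class IIa histone deacetylase that binds MEF2 proteins, went from 77.5 ± 14.5 to 45.8 ± 7.31 CPM (-0.76, SE 0.19, adjusted p = 0.0310). *Cbfb*, the shared partner of RUNX proteins and named here after its values were seen, was 0.59 lower on the log2 scale and just missed the threshold (adjusted p = 0.0511). At an unadjusted p under 0.05 in edgeR, 1 partner gene was higher and 6 were lower, against 13.1% and 15.6% of all tested genes. With DESeq2, 8 partner genes passed, 7 of them lower, against 20.7% of all genes in either direction.

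The NuRD complex, through which SALL1 represses, had 12 genes tested (median -0.29). Of these 12, 1 was higher and 3 were lower, against 4.36% and 7.97% of all tested genes. *Mta3* went from 13.6 ± 1.61 to 29.1 ± 6.54 CPM (log2 fold change 1.09, adjusted p = 0.0107). *Mta2*, another member of the same subunit family, went the other way, from 130 ± 30.4 to 71.8 ± 16.3 CPM (-0.85, adjusted p = 0.0364). The other falls were *Gatad2a*, from 80.2 ± 7.66 to 47.3 ± 4.64 CPM (-0.76, adjusted p = 0.00873), and the deacetylase gene *Hdac1*, from 47.6 ± 4.82 to 32.1 ± 3.24 CPM (-0.57, adjusted p = 0.0376; SD, n = 4 each). With libraries scaled by their totals 2 NuRD genes were called, where 2305 of all 20153 tested genes were called, against 2485 before. With 1 library left out 2 or 3 NuRD genes were called: 2 without control 2, control 3, mutant 2 or mutant 4. Over all tested genes, leaving out these libraries gave 1572, 1567, 1687 and 1830 calls.

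Transcription factors known from macrophages of other tissues had calls in both directions. Of 15 listed, 14 were tested, 7 were higher and 1 was lower (median 1.50), against 4.36% and 7.97% of all tested genes. *Id3* and *Id1*, inhibitors of helix-loop-helix factors and targets of BMP signalling, had the largest rises: *Id3* went from 45.4 ± 14.5 to 2557 ± 1043 CPM (log2 fold change 5.81, adjusted p = 7.84e-05) and *Id1* from 15.7 ± 3.54 to 631 ± 245 CPM (5.33, adjusted p = 6.32e-05). *Ahr*, the aryl hydrocarbon receptor, went from 2.06 ± 1.59 to 26.0 ± 8.54 CPM (3.65, adjusted p = 0.00856), and *Nr1h3*, which encodes LXRα, from 1.58 ± 1.16 to 19.7 ± 6.21 CPM (3.64, adjusted p = 0.0346). The other 3 that rose, named after their values were seen, were *Tfec* (2.94), *Pparg* (2.59) and *Id2* (2.15). *Bhlhe41*, a helix-loop-helix repressor, went from 29.8 ± 11.5 to 6.44 ± 1.94 CPM (-2.21, adjusted p = 0.00295; SD, n = 4 each). *Gata6*, the factor of peritoneal macrophages, did not pass the filter on low counts. Border macrophage markers rose in the same mutants by the sums given above, and their part in these rises was not tested.

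Genes long known as PU.1 targets also had calls in both directions. All 10 were tested, with 3 higher and 5 lower (median -0.46), against 4.36% and 7.97% of all tested genes. *Itgam*, the integrin CD11b, went from 148 ± 28.4 to 26.0 ± 4.04 CPM (log2 fold change -2.51, adjusted p = 9.76e-05), *Csf3r*, the G-CSF receptor, from 312 ± 68.1 to 62.7 ± 7.98 CPM (-2.32, adjusted p = 0.000141), and *Csf1r*, the CSF1 receptor, from 8136 ± 1941 to 3248 ± 890 CPM (-1.32, adjusted p = 0.00997). *Btk*, a kinase of B cells and myeloid cells (-1.23), and *Fcgr1*, an IgG receptor (-0.72, named after its values were seen), also fell. The scavenger receptor *Msr1* rose from 6.56 ± 3.94 to 367 ± 87.1 CPM (5.80, adjusted p = 0.000133), *Cybb*, a subunit of the phagocyte oxidase, from 64.1 ± 31.2 to 481 ± 78.0 CPM (2.91, adjusted p = 0.00107), and *Csf2ra*, a chain of the GM-CSF receptor, from 52.5 to 104 CPM in controls to 115 to 185 CPM in mutants (1.09, adjusted p = 0.0240; SD, n = 4 each). CD11b was also one of the proteins used to sort the cells.

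The genes around the 9 factors were examined last. Within 200000 bases, 96 other genes were listed and 55 tested, of which 1 was higher and 5 were lower, or 10.9% against 12.3% of all tested genes. None of the 2 tested neighbours of *Sall1*, the 2 of *Sall3*, the 3 of *Mef2c* or the 8 of *Mef2a* was called by edgeR. At an unadjusted p under 0.05 there were 0, 0, 1 and 1 such neighbours, and DESeq2 called 0, 0, 1 and 0. Over all genes these shares were 28.7% and 20.7%. *Spi1* had 3 neighbours called by edgeR among 19 tested. At an unadjusted p under 0.05, 4 of its neighbours were higher and 4 lower, against 13.1% and 15.6% of all tested genes. DESeq2 called 7 of them, against 20.7% of all genes. The 3 called by edgeR were *Nr1h3*, 68305 bases away and higher, and *Acp2* and *Arfgap2*, both lower. The other called neighbours, all lower and like these named after their values were seen, were *Pepd* near *Cebpa*, *Rnf114* near *Cebpb* and *Rcan1* near *Runx1*.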

How the data were processed

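Deposited raw counts per gene of 8 mouse libraries, 4 mutant and 4 control, were analysed. Per the Methods and the submitters' processing notes, the authors used Rsubread for alignment to mm10, featureCounts for the counts and DESeq2 1.28 for their own comparison. The annotation and strand setting are not given in the sources used here. The labels name Nextera XT, single-end, unstranded libraries, whereas the Methods name NEBNext Ultra II, paired-end ones. The authors' comparison table (log2 fold changes, standard errors, p-values) was not used.

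The 9 genes and the other gene lists were chosen with earlier results of these data known. Beyond the 9, the genes named are, of each list, the called genes with the largest rise and largest fall, up to 4 each, the targeted and sex-linked genes, and the 5 genes most like *Sall1*. Others are marked as named after their values were seen. One tested relative counts in the list totals but is not reported here.

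From the counts, genes reaching 10 counts in 4 or more of the 8 libraries were kept (20153 of 55573), and TMM-scaled libraries were compared with edgeR 4.0.16 in R 4.3.3 (glmQLFit, glmQLFTest, group only). Benjamini-Hochberg adjustment ran over all tested genes, with a call at an adjusted p under 0.05. The standard error is the log2 fold change divided by the square root of F. The biological coefficient of variation was 0.542, and the fewest reads were those of *Sall3* in mutants (4 to 35). The labels do not say that each replicate is a separate litter or sort, and p-values measure the spread between these samples. No 2 libraries of a group agreed within counting noise (lowest chi-square per gene 107). Ratios used a prior count of 2. Positions, exon lengths and overlaps come from GENCODE M21 on GRCm38, to which 55480 identifiers matched, and promoter sequences from RefSeq, GRCm38.p6.

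The tests were first run on simulated data with known changes of 2 on the log2 scale, up or down, in 200 of 20153 genes. EdgeR recovered 44% of them and DESeq2 59%, so a missing call does not show that a gene is unchanged. Alternatives were DESeq2 1.42.0, RLE factors, library totals, no filter, a filter of 10 counts in every library, a replicate block and each library left out. Leaving out both libraries with number 1, which held the most neuronal and oligodendrocyte marker RNA, was chosen after seeing the data. Tables, exact tests and plots were made in Python 3.11.15 (numpy 2.4.6, pandas 2.3.3, matplotlib 3.10.9, scipy 1.17.1).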

Additional observations from a re-analysis of the deposited data

Results flagged for a closer look

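Each of 24 groups of 4 values, examined for 1 value far from the rest by Dixon's test, would be singled out by chance about 1 time in 20, and 2 were. *Sall3* in mutant 2, at 0.756 CPM, stood above the other 3 mutants at 0.110 to 0.182 CPM, with a gap of 0.889 of the range. *Runx1* in control 3, at 170 CPM, stood above the other 3 controls at 118 to 126 CPM, with a gap of 0.838 of the range.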

How the results depend on the processing

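No fold change of the 9 factors and no difference of ratios changed sign under the alternatives run. *Sall1*, *Sall3*, *Mef2a* and *Mef2c* passed the test in each of them, except that with 10 counts in all 8 libraries *Sall1* and *Sall3* were not tested. The number of factors called was 6, and 4 to 7 otherwise. *Spi1* lost its call with library totals (-0.40, adjusted p = 0.0649), with no filter (-0.54, 0.0849) and without both libraries numbered 1 (-0.57, 0.0759, 5 factors called, chosen after seeing the data), and *Maf* with no filter (1.10, adjusted p = 0.0637). With 1 library left out, *Spi1* ranged from -0.59 to -0.46 and *Maf* from 0.88 to 1.38. *Cebpa* gained a call with DESeq2 (-0.92, adjusted p = 0.0382). *Mef2c* to *Mef2a* was -0.38 with medians (exact p = 0.0571) and -0.47 to -0.29 with 1 library left out. *Cebpb* to *Cebpa* was 1.45 with medians (exact p = 0.0571) and 1.19 to 1.50 with 1 library left out. Here 0.0571 is the smallest p that 3 against 4 allow, and also the smallest that medians of 4 against 4 allow. DESeq2 called 8 partner genes in place of 3. NuRD calls went from 4 to 2 with library totals and to 2 to 3 with 1 library left out. The cause was not tested. Over all genes, 2485 calls became 4751 with DESeq2 and 1567 to 2499 with 1 library left out, fewest without control 3, and 1572 without control 2. With library totals the median of all genes was 0.13, and 1018 of 2305 calls were higher, against 878 of 2485.

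Libraries with the same number did not all deviate together (correlations 0.166, 0.0183, 0.144 and 0.114), so the numbers were not taken as pairs. With the replicate block, 7 factors were called, since *Cebpa* passed (-0.83, adjusted p = 0.0302), with 2383 calls over all genes. *Maf* (1.08, SE 0.15, adjusted p = 0.0114) and *Spi1* (-0.52, SE 0.12, adjusted p = 0.0494) kept their calls with the block. The paired ratios were -0.38 for *Mef2c* to *Mef2a* and 1.33 for *Cebpb* to *Cebpa* (both exact p = 0.125, the smallest 4 pairs allow). By the same deviations, 3 of 4 controls were nearest to the mutant of their own number.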
